A study of Homo sapiens with 2 samples.

Results

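The genes described are the integrins, collagens and laminins of RMG1 cells, together with other genes of the extracellular matrix. They were chosen by name on the array: collagen chains (COL, a type number, A and a chain number), laminin chains (LAMA, LAMB or LAMC and a digit), integrin subunits (ITGA or ITGB and a digit or letter), and FN1, NID1, NID2, HSPG2, AGRN, SPARC, TNC, THBS1, THBS2, LOX, LOXL1, LOXL2, FBN1 and FBN2. This gave 95 genes with 128 probes, of 27267 genes on the array. The rule itself uses names and no expression value. RMG1 is an established cell line from a clear cell adenocarcinoma of the ovary, kept in DMEM/F12 medium with fetal bovine serum. The ALDEFLUOR assay separated its cells by aldehyde dehydrogenase activity into ALDH+ cells, in which the study looks for cancer stem-like cells, and ALDH- cells. RNA of both populations was hybridized together on 2 arrays, with ALDH+ cells in Cy5 on the first and in Cy3 on the second. The arrays were taken to carry the same pair of extracts, so there was 1 sample per population, and no test between them was possible. The labels name RMG1 and the methods section names AMOC2 as the source of this RNA.

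Integrins are receptors made of an alpha and a beta subunit that hold cells to the matrix and signal from it. Laminins are trimers of an alpha, a beta and a gamma chain. With type IV collagen, nidogen and perlecan they build the basement membrane, the sheet on which epithelial cells rest. Fibrillar collagens, fibronectin and fibrillins form the stroma around it, much of which is made by fibroblasts rather than by carcinoma cells.

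The sequences of 4 probes are shown because they lie inside the transcript or across an exon junction of a gene described here, so that what was hybridized can be read directly. Each is 60 bases long, in lower case throughout. The ITGB1 probe lies at chr10:33200507-33200566 on the minus strand of hg19, the build of the array design. The others span more of the genome than their own length, which places them across a junction of exons: COL7A1 at chr3:48602401-48602588 over 188 bases, the less bright of the LAMA1 probes at chr18:6956742-6958512 over 1771 bases, and FN1 at chr2:216288217-216288895 over 679 bases, all on the minus strand.
ITGB1: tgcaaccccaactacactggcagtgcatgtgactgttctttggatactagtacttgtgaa
COL7A1: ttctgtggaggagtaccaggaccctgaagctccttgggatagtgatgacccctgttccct
LAMA1: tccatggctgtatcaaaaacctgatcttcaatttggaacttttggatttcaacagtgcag
FN1: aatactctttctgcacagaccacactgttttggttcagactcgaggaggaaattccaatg

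Of the 95 genes, 49 were measured, meaning that a probe was well above background on both arrays in at least one population. This share, 51.6%, compares with 50.3% of all genes on the array. By family, 15 of 26 integrins, 17 of 43 collagens, 10 of 12 laminins and 7 of 14 other matrix genes were measured. Of 6 type IV collagen chains, which belong to the basement membrane, 5 were measured. Of 11 fibrillar collagens, 3 were measured. Of the 46 genes not measured, 30 had no probe well above background on any array, among them the fibrillar collagen genes COL1A2 and COL3A1, the fibrillins FBN1 and FBN2, the nidogen NID1 and the cross-linking enzyme LOX. The other 16, including COL1A1, COL5A1 and SPARC, were above background only in part. Among the measured genes, the probes of COL4A5, ITGA6 and ITGA11 passed the background limit for ALDH- cells on a single array, and that of COL25A1 for ALDH+ cells on a single array. Of 8 fibroblast and stromal marker genes 1 was measured, TAGLN, with a mean log2 ratio of 0.06, as were 1 of 4 endothelial markers (CDH5) and 3 of 5 leukocyte markers (PTPRC, CD68 and CD14). TAGLN and CDH5 were dim, with intensities of 126 to 143 and of 106 to 128 over both populations. The leukocyte markers summed to intensities of 470 and 551 in ALDH+ cells and of 444 and 435 in ALDH- cells, with CD14 highest in ratio at 0.45. Each gene's intensity includes an offset of 50 added before normalization, so these levels are low. All 6 epithelial markers were measured, with a median of 0.02, and all 3 markers of clear cell carcinoma, of which the transcription factor gene PAX8 was lower in ALDH+ cells, with a mean log2 ratio of -0.74. The intensities of these 3 markers summed to 9261 and 9468 in ALDH+ cells and to 16030 and 14482 in ALDH- cells. Whether the differences below go with that in PAX8 was not tested. In such bulk extracts, fewer cells expressing a gene and less RNA per cell cannot be told apart.

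As a whole set, matrix and integrin genes were more often lower than higher in ALDH+ cells, but not in every family. Most differences were small. All ratios below are log2 ratios of ALDH+ over ALDH- cells. Over the 49 genes their median was -0.15 as a mean of both arrays, -0.09 on the first and -0.17 on the second, against -0.002 over the 13718 genes measured. Of the 49 genes, 29 were lower by any amount (59.2%, background 50.4%) and 20 higher (40.8%, background 49.6%). By family, 7 of 15 integrins and 9 of 17 collagens were lower, as were 8 of 10 laminins and 5 of 7 other matrix genes. A mean ratio more than 2-fold lower was found for 1 gene, ITGB3 (background 0.707% of all genes measured), and none was more than 2-fold higher (0.211%). At 1.5-fold, 6 of 49 were lower, which is 12.2% against 4.59% of all genes. The 6 were ITGB3, LAMC1, LAMA1, ITGB1, COL7A1 and LAMA3. At this size 1 gene was higher, ITGB8, or 2.04% against 1.51%. With median centring in place of loess these counts became 4 lower and 2 higher. No share over all genes is given under that setting.

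**Figure D1:**
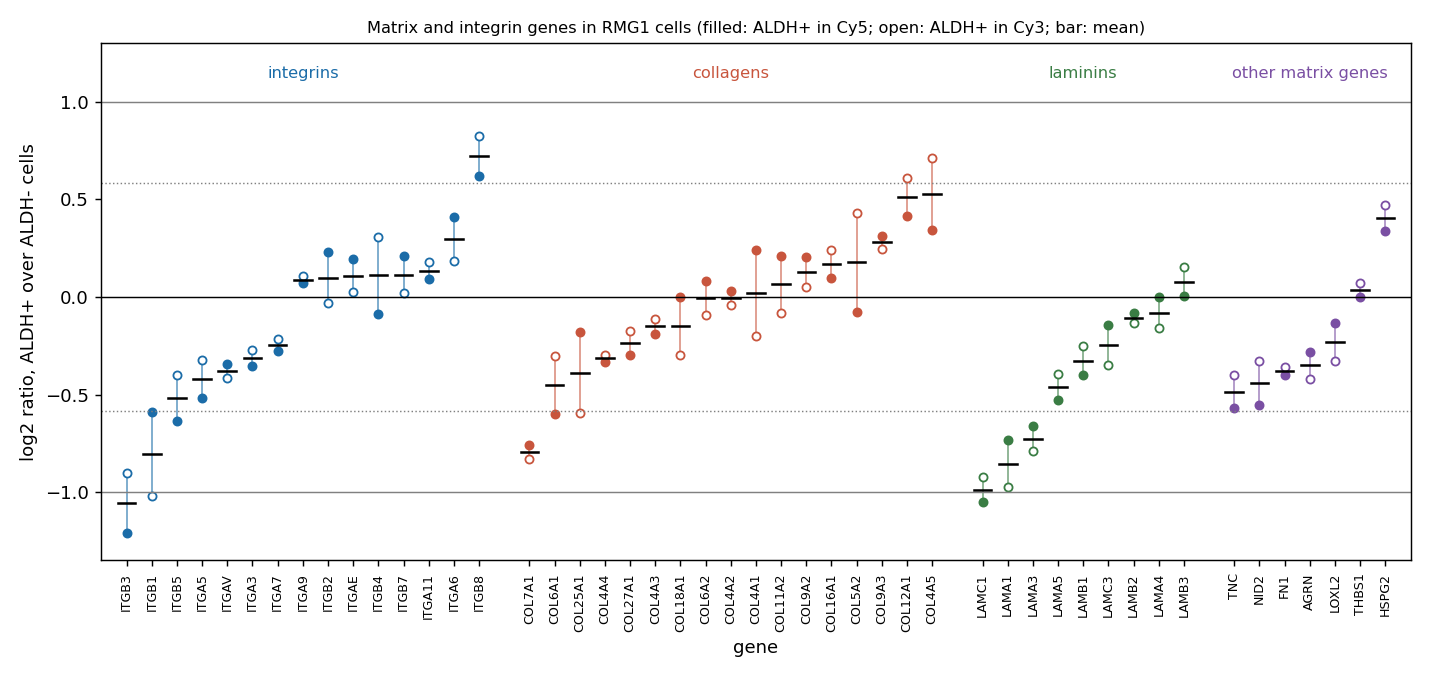
Log2 ratio of ALDH+ over ALDH- cells (vertical axis) of 48 of the 49 measured genes, grouped by family and ordered by mean. Filled points are the array with ALDH+ cells in Cy5, open points the array with ALDH+ cells in Cy3, and bars their mean. Solid and dotted grey lines mark 2-fold and 1.5-fold. ITGB3, LAMC1 and LAMA1 lie lowest and ITGB8 highest.

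Both arrays gave the same sign for 39 of the 49 genes, 79.6% against 69.7% of all genes measured. Of them 25 were lower on both arrays (51.0%, background 36.1%) and 14 higher on both (28.6%, background 33.7%). In 24 genes the ALDH+ intensities lay below both ALDH- intensities (49.0%, background 33.6%), and in 10 above both (20.4%, background 30.2%). Since the arrays carry the same extracts, this compares dye and array error and not separate sorts of cells.

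**Figure D2:**
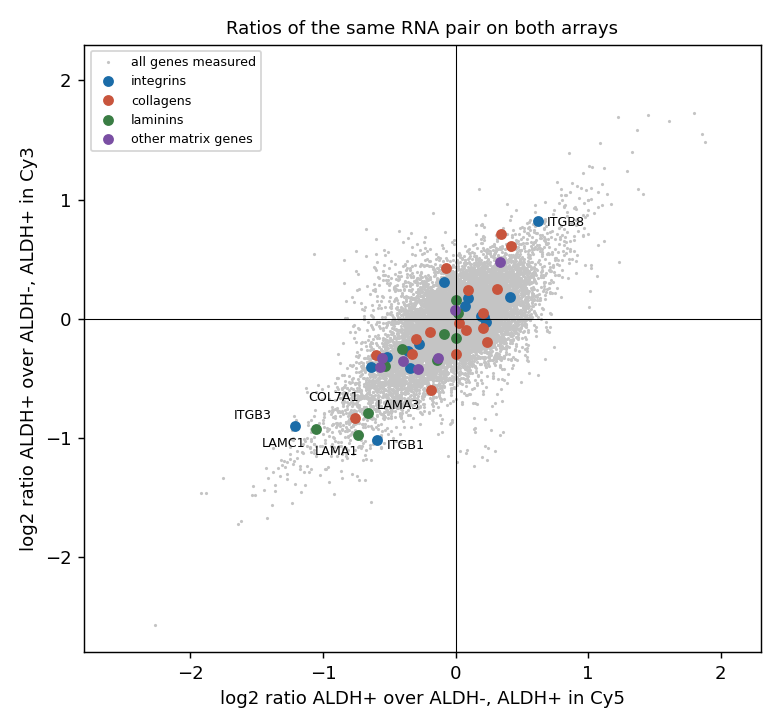
Log2 ratio of ALDH+ over ALDH- cells with ALDH+ in Cy5 (horizontal) against ALDH+ in Cy3 (vertical) for all 13718 genes measured (grey) and the 49 matrix and integrin genes (colors by family). The 7 genes past 1.5-fold are named. They lie in the lower left and, for ITGB8, the upper right, where both arrays have the same sign.

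Among the integrin beta subunits, ITGB3, ITGB1 and ITGB5 were lower in ALDH+ cells and ITGB8 was higher. ITGB3 encodes the beta3 subunit, which pairs with alphaV in the vitronectin receptor. Its normalized log2 intensity was 12.94 and 13.07 in ALDH+ cells and 14.16 and 13.97 in ALDH- cells, so the ALDH+ values were lower on both arrays. The ratio was -1.21 and -0.90, with a mean of -1.06 ± 0.22 (SD of the 2 arrays), or 2.08-fold lower. This exceeds 2-fold by less than the SD, and ranks 74th from the lowest of all genes measured. With ALDH+ cells in Cy3 alone it did not reach 2-fold, and median centring gave -0.73.

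ITGB1 encodes the beta1 subunit, shared by many collagen, laminin and fibronectin receptors. Its intensity was 10.43 and 10.26 in ALDH+ cells against 11.02 and 11.28 in ALDH- cells, without overlap. The mean ratio was -0.80 ± 0.30, 1.75-fold lower. ITGB5, another partner of alphaV, had a mean ratio of -0.52 ± 0.16. Its probe was dim, with Cy3 signals of 278 and 202 against negative control medians of 135.2 and 127.2. The ITGB5 value ranged from -0.83 with the log ratio of the array software to -0.45 without background correction. ITGB8 encodes a beta subunit that pairs with alphaV and binds latent TGF-beta. It had intensities of 10.61 and 10.78 in ALDH+ cells and of 9.98 and 9.96 in ALDH- cells, again without overlap. Its mean ratio of 0.72 ± 0.14, 1.65-fold higher, ranked 99th from the highest of all genes measured. ITGB4, the partner of alpha6 in hemidesmosomes, had ratios of -0.09 and 0.31, of opposite sign on the arrays.

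No alpha subunit passed 1.5-fold. Of 8 measured, 4 were lower and 4 higher on both arrays. ITGA5, whose product is the alpha subunit of a fibronectin receptor, had a mean ratio of -0.42 ± 0.14. ITGAV, the common partner of beta3, beta5 and beta8, had one of -0.38 ± 0.05. ITGA3, a subunit of a laminin receptor, was at -0.31 ± 0.06. Higher in ALDH+ cells was ITGA6, of another laminin receptor, at 0.30 ± 0.16. Its probe was above background in ALDH- cells on a single array only. The ITGA6 value ranged from 0.15 without background correction to 0.61 with the log ratio of the array software. The integrins as a family had no settled direction: the median of the 15 was 0.09 for the means of both arrays, -0.09 on the first array and -0.03 on the second, and -0.25 where both populations had to be above background.

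**Figure D3:**
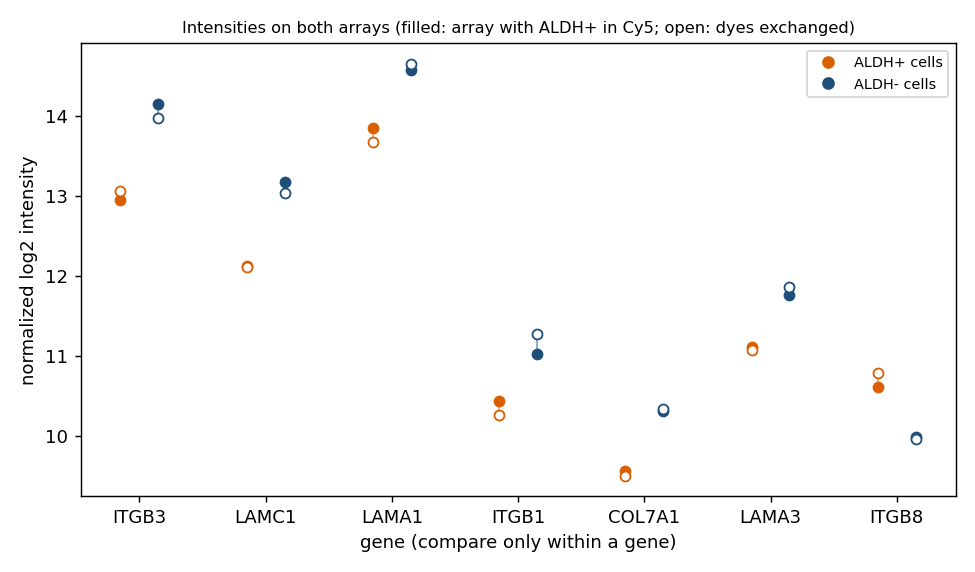
Normalized log2 intensity (vertical axis) of the 7 genes past 1.5-fold in ALDH+ cells (orange) and ALDH- cells (blue). Filled points are the array with ALDH+ cells in Cy5 and open points the array with the dyes exchanged. Levels of different genes come from different probes and are not comparable. In each gene the points of the populations do not overlap.

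The laminins were mostly lower, with 8 of 10 measured chains lower and 2 higher and a median of -0.29. Over all genes measured, 50.4% were lower. On both arrays 7 chains were lower and 2 higher, against 36.1% and 33.7% of all genes. LAMA4, among the 8, had ratios of 0.0004 and -0.16 with overlapping intensities. LAMC1 encodes the gamma1 chain, which most laminins contain. Its intensity was 12.13 and 12.11 in ALDH+ cells and 13.18 and 13.03 in ALDH- cells, without overlap. Its mean ratio was -0.99 ± 0.09, or 1.98-fold lower, short of 2-fold by less than the SD. LAMA1, the alpha1 chain of laminin 111, had intensities of 13.85 and 13.68 against 14.58 and 14.65, and a mean ratio of -0.85 ± 0.17. LAMA3, the alpha3 chain of laminin 332, had 11.11 and 11.07 against 11.77 and 11.86, and a mean ratio of -0.73 ± 0.09. In both chains the ALDH+ values lay below the ALDH- values. A second probe of LAMA1 gave -0.50 and one of LAMA3 gave -0.41, so the size differed with the probe. That of LAMA3 was dim, with Cy3 signals of 228 and 182 against negative control medians of 135.2 and 127.2. With median centring LAMA1 was at -0.49 and LAMA3 at -0.54, both short of 1.5-fold.

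Set out by trimer, the chains of laminin 111 had ratios of -0.85 for LAMA1, -0.33 for LAMB1 and -0.99 for LAMC1. In laminin 332, which anchors epithelial cells through hemidesmosomes, LAMA3 was at -0.73, whereas LAMB3, the beta chain, was at 0.08. LAMA5, the alpha chain of the laminins 511 and 521, was at -0.46 and LAMB2 at -0.11. A second probe of LAMB2 gave 0.11, so its direction turned with the probe; by its brighter probe it counts among the 8 lower chains. The neighboring genes COL4A1 and COL4A2 were at 0.02 and -0.005.

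The sequence before the start of transcription is shown for LAMB1 and LAMC1, which were both lower and share laminins, and between COL4A1 and COL4A2, which start in opposite directions from one stretch of DNA. They come from RefSeq on GRCh38.p14, where 69 of the 95 genes had an entry. LAMB1 is chr7:108003162-108003411 (minus strand), LAMC1 is chr1:183023170-183023419 (plus strand), each covering the 250 bases before the start, and COL4A1-COL4A2 is the 126 bases at chr13:110307158-110307283 (plus strand). Capitals mark GGGCGG or its reverse complement CCGCCC, a GC box.
LAMB1: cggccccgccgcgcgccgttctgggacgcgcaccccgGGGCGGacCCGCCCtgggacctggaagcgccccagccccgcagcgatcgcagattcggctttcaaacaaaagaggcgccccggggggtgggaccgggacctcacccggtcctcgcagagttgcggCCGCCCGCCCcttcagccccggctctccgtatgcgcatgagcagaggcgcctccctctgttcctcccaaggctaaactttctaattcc
LAMC1: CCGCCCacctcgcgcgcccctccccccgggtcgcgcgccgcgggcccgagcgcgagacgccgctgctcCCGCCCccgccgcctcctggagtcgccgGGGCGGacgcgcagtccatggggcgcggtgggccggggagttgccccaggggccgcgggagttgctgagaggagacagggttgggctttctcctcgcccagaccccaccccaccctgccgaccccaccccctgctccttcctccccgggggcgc
COL4A1-COL4A2: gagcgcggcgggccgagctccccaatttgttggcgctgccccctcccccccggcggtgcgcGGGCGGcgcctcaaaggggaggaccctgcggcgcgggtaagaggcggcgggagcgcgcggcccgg
The LAMB1 sequence held 4 such matches, that of LAMC1 3 and that of COL4A1-COL4A2 1. Of all 35116 promoters in the table, 42.6% held at least 1 in the 250 bases, so the match is common. It is a description of the letters and not of a bound factor.

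Collagens had no common direction. Of 17 measured, 9 were lower and 8 higher, with a median of -0.005, which was 0.03 on the first array, -0.09 on the second and 0.10 with median centring. COL7A1, whose product forms the anchoring fibrils under epithelia, had intensities of 9.55 and 9.50 in ALDH+ cells and of 10.31 and 10.33 in ALDH- cells. Its mean ratio was -0.79 ± 0.05, 1.73-fold lower, and it was the only collagen past 1.5-fold. COL6A1, a chain of the beaded filaments of type VI collagen, was at -0.45 ± 0.21, while COL6A2 of the same trimer was at -0.01, and at 0.05 by a second probe. The 4 measured of 10 FACIT collagens, which decorate collagen fibrils, were higher on both arrays (background 33.7%), with a median of 0.22. On the second array, however, COL9A2 was at -0.13 with median centring. It was at -0.02 there without background correction or with background from the negative control spots. COL9A2, COL9A3 and COL16A1 were dim, with Cy3 signals of 195 to 231 against negative control medians of 135.2 and 127.2. COL12A1 was the highest of the 4 at 0.51 ± 0.14. COL4A5, the alpha5 chain of type IV collagen, was at 0.53 ± 0.26, a value close to background in ALDH- cells that ranged from 0.40 without background correction to 2.02 with the log ratio of the array software.

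Of the 7 other matrix genes, 5 were lower and 2 higher, none past 1.5-fold. TNC, the matricellular protein tenascin C, had a mean ratio of -0.48 ± 0.12. NID2, a nidogen that links laminin to type IV collagen, had one of -0.44 ± 0.16. FN1, which encodes fibronectin, was at -0.38 ± 0.03. The FN1 probe was dim, with Cy3 signals of 272 and 223 against negative control medians of 135.2 and 127.2. HSPG2, the heparan sulfate proteoglycan perlecan, was higher at 0.41 ± 0.09, and its 3 probes ranged from 0.10 to 0.41. The probes below 0.41 were dim, with Cy3 signals of 159 to 167. They passed the background limit for ALDH- cells on a single array. THBS1, thrombospondin 1, was at 0.03 ± 0.05.

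Genes that modify collagen or sit beside the integrins were listed separately. Of 27 genes of collagen synthesis and processing, 16 were measured, with a median of -0.15. In this list 1 of 16 was more than 1.5-fold lower and 0 higher, against 4.59% and 1.51% of all genes measured. The lower gene was P3H2, a prolyl 3-hydroxylase of collagen, with ratios of -1.42 and -1.34 and a mean of -1.38, 2.60-fold lower. Of 28 integrin adaptor and focal adhesion genes, 25 were measured, with a median of -0.04. The integrin activator FERMT1 (kindlin 1) was higher at 0.62, the 1 gene of 25 more than 1.5-fold higher (background 1.51%). No gene of the list was more than 1.5-fold lower (background 4.59%). Of 21 other matrix receptors, 16 were measured, with a median of -0.05. The glypicans GPC3 and GPC4, cell surface heparan sulfate proteoglycans, were lower at -0.86 and -0.65, and the hyaluronan receptor HMMR was higher at 0.59. Past 1.5-fold these were 2 of 16 lower (background 4.59%) and 1 of 16 higher (background 1.51%). Whether any of these lists differs from all genes was not tested.

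**Figure D4:**
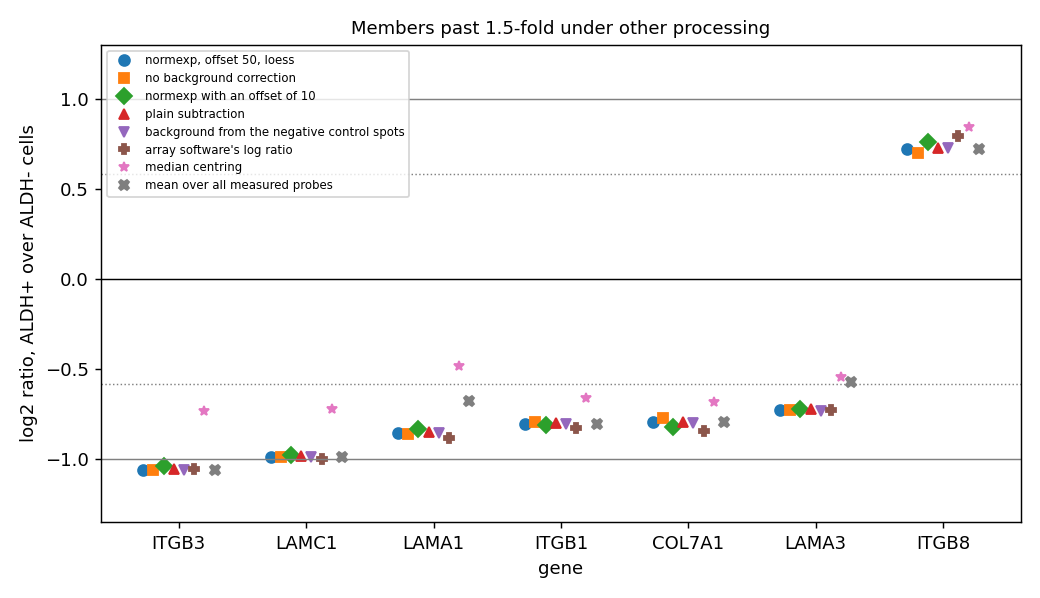
Mean log2 ratio of ALDH+ over ALDH- cells (vertical axis) of the 7 genes past 1.5-fold under the reported processing (normexp, offset 50, loess) and 7 alternatives, marked by symbol. Grey lines mark 2-fold and 1.5-fold. Each gene keeps its sign under these alternatives, and median centring moves ITGB3 from -1.06 to -0.73. The mean over all measured probes can differ from the reported value only for LAMA1 and LAMA3.

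Matrix and integrin genes are long, and over all genes the longest had slightly lower ratios. The measured genes had a median span of 79.4 kb against 26.9 kb for the 11810 genes with a known span. The 2953 longest of these had a median ratio of -0.07, and the other 8857 one of 0.01. Of the matrix and integrin genes, 28 were among the longest and had a median of -0.15, and the other 21 had one of -0.11. Among the longest, 3 of the 28 genes were more than 1.5-fold lower, against 201 of all 2953, or 6.81%. The part of gene length in the ratios was not tested.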

How the data were processed

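ALDH+ cells were compared with ALDH- cells of the RMG1 line on 2 Agilent 2-color arrays with the dyes exchanged. The authors deposited the intensity of each spot and its local background, without normalization. They also deposited the log10 ratio of the array software, which includes that software's background and dye corrections, and a table that joins this ratio for both arrays. The file headers name Feature Extraction 10.7.3.1, and the submitters' processing notes name 8.5.1.1. Labeling started from an oligo-dT primer.

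Mean signals were background-corrected in R 4.3.3 with limma 3.58.1 (normexp, offset 50) and normalized by within-array loess. Spots of control probes and spots marked as outliers (531 and 519) were not used. No gene spot was saturated. In Cy3, the median signal of negative control spots was 135.2 and 127.2 on the arrays, against local backgrounds of 38 and 36.5. Spots of a probe were averaged, ratios were turned to ALDH+ over ALDH- cells, and both arrays were averaged as 1 replicate. Average intensities were quantile-normalized between arrays (Aquantile). A probe was well above background where more than 50% of its spots were, and the brightest measured probe stood for a gene. Counts, medians and plots were made with Python 3.11.15, pandas 2.3.3, numpy 2.4.6 and matplotlib 3.10.9. The normalization was tested on simulated data.

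Counts at 2-fold and 1.5-fold were set beside those over all genes measured, and no p-value is given. Genes named by rule were those past 1.5-fold with the same sign on both arrays, the 2 highest and 2 lowest of each family, and the subunits of laminin and fibronectin receptors; others are named to complete a complex or list, and the values of 1 measured gene are not reported here. The naming rule for the genes uses no measured value, but the rule and the other lists were set with earlier results of these data known. Alternatives changed the background correction, the normalization, the filter, the probe rule and the arrays used. Precision is limited by the number of arrays, and the spread between separate sorts is unknown.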

Additional observations from a re-analysis of the deposited data

How the results depend on the processing

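With the log ratio of the array software, and with the joined table, which holds the same ratios, 1 gene was more than 2-fold higher (COL4A5, 2.02), 4 were more than 1.5-fold higher (COL4A5, ITGB8, COL12A1 and ITGA6), and the median of the 49 genes was -0.26. With median centring none was more than 2-fold lower (0), 2 were more than 1.5-fold higher (ITGB8 and HSPG2), and the median was -0.064. Under median centring all genes measured had a median of 0.07 as a mean of both arrays, against -0.002 under the reported processing. It was 0.56 on the first array and -0.43 on the second. An offset of 10 gave 2 genes more than 1.5-fold higher. Requiring 2-fold on each array left 0 lower. Without a filter on dim probes the median was -0.019. The number more than 1.5-fold lower was 4 to 9 over the alternatives. Shares over all genes measured are given for the reported processing only. Counts under the alternatives and on single arrays therefore have no background beside them.

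With each array alone, 1 to 2 genes were more than 2-fold lower (ITGB3 and LAMC1 where ALDH+ cells were in Cy5, and ITGB1 in place of both, at -1.02, where they were in Cy3, with ITGB3 at -0.90), 1 to 3 were more than 1.5-fold higher (COL4A5 and COL12A1 joined ITGB8 with ALDH+ cells in Cy3), 7 to 8 were more than 1.5-fold lower, and the median was -0.17 to -0.086. None of 218 values of the genes named by rule changed sign under the alternatives that used both arrays, and 28 moved by over 1 SD of the arrays. Many of these genes were named for their ratios in these same data, so a stable sign follows in part from that choice. Part of the 218 values also could not move. Wherever the filter settings gave a value for these genes, it was the reported value. The mean over probes was the reported value where 1 probe was measured, and the joined table repeats the ratios of the array software. Of 48 family medians, 10 changed sign, all in the integrins and collagens but for 1 in the other matrix genes (0.01 without a filter). No paired analysis was possible because the arrays share 1 pair of RNA extracts.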
